A study of Mus musculus with 6 samples.

Results

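The classical cadherins Cdh1, Cdh2 and Cdh3, the adhesion gene Epcam and the catenin genes Ctnna1, Ctnnd1 and Jup were followed in mouse embryonic stem cells (ESC) with reduced Srrm2. The set was a fixed list of names and comprised 7 of the 42450 genes in the count table, all of which were found there. Total RNA was sequenced from 3 WT libraries and 3 Srrm2+/- libraries. WT was the male ESC line E14tg2a.4, and Srrm2+/- was a gene-trap line (CG0630) made in the same E14tg2a.4 cells that carries a heterozygous truncation of the splicing factor gene Srrm2. Both were cultured on gelatin with LIF, the cytokine that keeps ESC undifferentiated, and moved to serum-free ESGRO medium with LIF before collection. The replicates were separately frozen and thawed batches of each line. Srrm2+/- was a single gene-trap line, and its cells were used at lower passage numbers than WT, so genotype, line and passage cannot be told apart.

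Adherens junctions join neighbouring cells through classical cadherins, single-pass membrane proteins that bind the same kind of cadherin on the next cell. Inside the cell, the cadherin tail is held by p120-catenin near the membrane and by beta-catenin or plakoglobin further along, and alpha-catenin links the complex to actin. E-cadherin is the cadherin that holds mouse ESC together in compact colonies, and a shift from E-cadherin to N-cadherin accompanies many epithelial-to-mesenchymal transitions (EMT).

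Srrm2 itself, which checks the genotype labels, stood at 91.2, 98.3 and 97.7 CPM (counts scaled to library size with TMM factors) in WT replicates 1 to 3 and at 62.3, 56.2 and 59.6 in Srrm2+/- replicates 1 to 3. No Srrm2+/- library reached the lowest WT library, and edgeR gave a log2 fold change of -0.69 with an SE of 0.05 and an adjusted p of 2.38e-05. Library totals ran from 54151532 to 69933465 estimated counts. Of the 18905 genes tested, 13.6% were called higher in Srrm2+/- and 11.7% lower at an adjusted p under 0.05, or 25.3% in either direction. The median log2 fold change of all tested genes was -0.0025.

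All 6 tested members, Cdh1, Cdh2, Cdh3, Ctnna1, Ctnnd1 and Jup, were called higher in Srrm2+/- and none was called lower. Their increases were moderate, from a fold of 1.20 for Ctnnd1 to 1.68 for Cdh2, with a median log2 fold change of 0.37. The 3 Srrm2+/- libraries lay above the 3 WT libraries in each of the 6, a separation in that direction which 21.4% of all tested genes showed. These 6 genes had at least 323 estimated counts in every library, so none entered the test through 1 group alone. Epcam, the seventh member, was listed at 0 in 5 libraries and was not tested. RNA was measured in bulk, where a change in the number of cells that express a gene and a change in RNA per cell cannot be told apart.

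**Figure D1:**
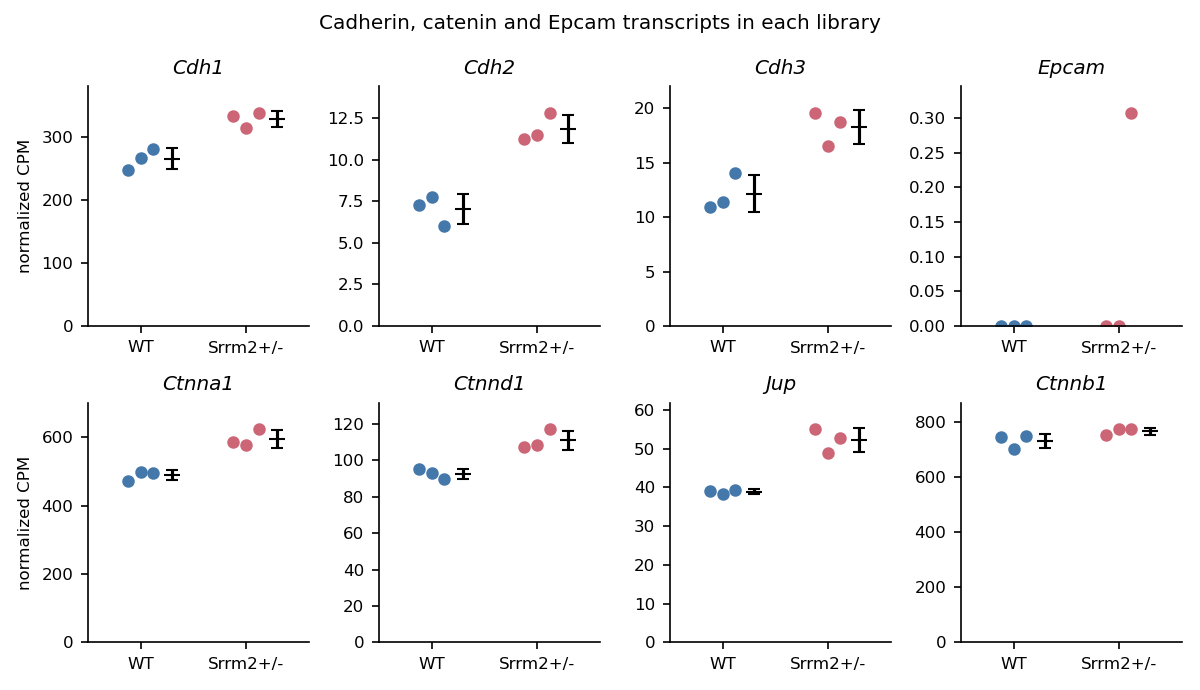
Level of each gene (vertical axis, TMM-scaled CPM, starting at 0) in the 3 WT libraries (blue) and the 3 Srrm2+/- libraries (red), with the mean ± SD of each group as a black bar except for Epcam. The Srrm2+/- libraries lie above the WT libraries for Cdh1, Cdh2, Cdh3, Ctnna1, Ctnnd1 and Jup, the Ctnnb1 values lie close together, and Epcam is above 0 in 1 library.

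Cdh1 encodes E-cadherin and lies on chromosome 8 (GRCm38, 106603351-106670246, plus strand). Its level was 248, 267 and 281 CPM in the WT libraries and 333, 314 and 338 CPM in the Srrm2+/- libraries. The lowest Srrm2+/- library was above the highest WT library. The means were 265 ± 16.4 (SD, n = 3) and 328 ± 12.7 CPM (SD, n = 3). The edgeR estimate was 0.31 on the log2 scale, with an SE of 0.05, a 95% interval of 0.19 to 0.43 and an adjusted p of 0.00306.

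Cdh3, which encodes P-cadherin, is the neighbour of Cdh1 on chromosome 8 (106510891-106557297, plus strand). It ends 46053 bases before Cdh1 starts, with 2 annotated genes lying wholly between them. Its level was 11.0, 11.4 and 14.1 CPM in WT and 19.6, 16.6 and 18.8 CPM in Srrm2+/-. WT replicate 3 stood above the other WT libraries, and still below every Srrm2+/- library. Mean levels were 12.1 ± 1.70 and 18.3 ± 1.57 CPM (SD, n = 3 each), and the change on the log2 scale was 0.59 with an SE of 0.10 (adjusted p = 0.00336, edgeR).

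Cdh2 encodes N-cadherin, the cadherin of neural and mesenchymal cells, and lies on chromosome 18 (16588877-16809246, minus strand). It had the largest fold change of the tested members. WT libraries had 7.30, 7.73 and 6.03 CPM and Srrm2+/- libraries had 11.2, 11.5 and 12.8 CPM. The groups were well apart, with each within-group range smaller than the gap between them. The means were 7.02 ± 0.884 and 11.8 ± 0.861 CPM (SD, n = 3 each), which edgeR fitted as 0.75 on the log2 scale with an SE of 0.11 (adjusted p = 0.00101). An antisense gene inside Cdh2, Gm15485, had at most 1 count in any library.

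The balance among the cadherins was compared within each library as the log2 ratio of estimated counts, which does not depend on scaling between libraries. The Cdh2 to Cdh1 ratio was -5.09, -5.11 and -5.54 in WT and -4.89, -4.78 and -4.72 in Srrm2+/-. It differed by 0.45 between the group means, and every Srrm2+/- library was above every WT library (two-sided exact permutation p = 0.1, the smallest that 3 against 3 allows, Benjamini-Hochberg p = 0.133 over 4 ratios). The Cdh3 to Cdh1 ratio was -4.50, -4.55 and -4.31 in WT and -4.09, -4.25 and -4.17 in Srrm2+/-, a difference of 0.29 with no overlap (exact permutation p = 0.1, Benjamini-Hochberg p = 0.133). Both minor cadherins therefore had larger values relative to Cdh1 in each Srrm2+/- library, at a p-value that this design cannot take below 0.1.

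E-cadherin transcripts remained by far the most abundant of the 3 cadherins. With CPM divided by the total length of annotated exons, Cdh1 made up 94.1 ± 0.166% of the sum of the 3 in WT and 92.7 ± 0.217% in Srrm2+/- libraries (SD, n = 3 each). Cdh3 accounted for 4.49 ± 0.387% and 5.39 ± 0.286%, and Cdh2 for 1.42 ± 0.240% and 1.89 ± 0.114%. With the longest coding transcript as the length, the share of Cdh2 was 2.28 ± 0.381% and 3.03 ± 0.180%, that of Cdh3 4.31 ± 0.379% and 5.16 ± 0.277%, and that of Cdh1 93.4 ± 0.0937% and 91.8 ± 0.190%. Cdh2 was the least abundant of the 3 in both groups under either length.

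Epcam encodes a homophilic adhesion protein of epithelial cells that is also known from the surface of mouse ESC, and it lies on chromosome 17 (87635979-87651129, plus strand). Its estimated count was 0 in WT replicates 1 to 3 and in Srrm2+/- replicates 1 and 2. In Srrm2+/- replicate 3 it was 19.4, which is 0.308 CPM. A count of 0 allows up to 3 counts, or 0.0434 to 0.0560 CPM in these libraries. That bound covers counting error only and holds only if reads from Epcam could be assigned to it: the transcriptome release that the authors quantified against was not analysed here, so whether the zeros come from the quantification, the table or the cells cannot be told apart. With a filter that kept every gene with at least 1 count, the difference did not pass the test (edgeR unadjusted p = 0.0367, adjusted p = 0.161), and no fold is given against 5 libraries at 0.

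Calm2, a calmodulin gene near Epcam, was well counted in the same libraries, with 24889 to 30358 estimated counts. All 79 ribosomal protein genes in the table were above 0 in every library. Of the 31-base words in the annotated Epcam transcripts, 0.0450% were found in transcripts of another gene.

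Ctnna1 encodes alpha-catenin, the link from the cadherin complex to actin, and lies on chromosome 18 (35118859-35254779, plus strand). Its level was 471, 498 and 496 CPM in WT and 585, 576 and 623 CPM in Srrm2+/-. No WT library reached the lowest Srrm2+/- library. The means were 488 ± 14.8 and 595 ± 25.1 CPM (SD, n = 3 each), and edgeR put the increase at 0.28 on the log2 scale with an SE of 0.04 (adjusted p = 0.00188). Lrrtm2, which lies within Ctnna1 on the opposite strand, had 177 to 306 estimated counts, against 26158 or more for Ctnna1.

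Ctnnd1 encodes p120-catenin, which binds the cadherin tail at the membrane and keeps cadherins from being taken up, and it lies on chromosome 2 (84600071-84650765, minus strand). Its level was 95.1, 92.9 and 89.8 CPM in WT and 107, 109 and 117 CPM in Srrm2+/-. The separation was the smallest in fold among the 6 tested members and still without overlap. The means were 92.6 ± 2.68 and 111 ± 5.22 CPM (SD, n = 3 each), and the fitted log2 difference was 0.26 with an SE of 0.05 (adjusted p = 0.00311, edgeR). The annotated readthrough gene Gm28635 shares much of this sequence, and 58.6% of the 31-base words of Ctnnd1 occurred in another gene. Gm28635 had 609 estimated counts in Srrm2+/- replicate 2 and 0 in the other libraries. With both genes summed, a choice made after the data were seen, the log2 fold change was 0.30 (edgeR adjusted p = 0.00173).

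Jup encodes plakoglobin (gamma-catenin), the catenin shared by adherens junctions and desmosomes, and lies on chromosome 11 (100368958-100397763, minus strand). WT libraries had 39.1, 38.3 and 39.4 CPM and Srrm2+/- libraries had 55.0, 48.8 and 52.7 CPM. All Srrm2+/- values were higher and more widely spread. The means were 38.9 ± 0.564 and 52.2 ± 3.13 CPM (SD, n = 3 each). The log2 increase of 0.42 had an SE of 0.05 and the lowest adjusted p among the tested members (0.00046, edgeR).

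Promoter windows were taken from RefSeq (GRCm38.p6, 250 bases before to 50 bases after an annotated start). Windows were examined for Jup, Epcam and Ctnnd1 only, which is 3 of the 7 members. None was examined for Cdh1, Cdh2, Cdh3 or Ctnna1. They were searched on both strands for the E2 box CACCTG, the sequence bound by Snail and ZEB repressors, for the GC box GGGCGG, bound by Sp1-family factors, and for the CArG box of serum response factor. The 2 windows shown, with matches on either strand in capitals, are those in which a motif was found: Jup at chr11:100397741-100398040 on the minus strand, and Epcam at chr17:87635729-87636028 on the plus strand.
Jup: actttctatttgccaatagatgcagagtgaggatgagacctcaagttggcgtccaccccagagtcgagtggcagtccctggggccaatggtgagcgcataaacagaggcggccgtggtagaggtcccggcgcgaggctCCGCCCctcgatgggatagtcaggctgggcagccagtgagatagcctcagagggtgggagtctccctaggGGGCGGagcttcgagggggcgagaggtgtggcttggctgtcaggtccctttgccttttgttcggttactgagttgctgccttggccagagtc
Epcam: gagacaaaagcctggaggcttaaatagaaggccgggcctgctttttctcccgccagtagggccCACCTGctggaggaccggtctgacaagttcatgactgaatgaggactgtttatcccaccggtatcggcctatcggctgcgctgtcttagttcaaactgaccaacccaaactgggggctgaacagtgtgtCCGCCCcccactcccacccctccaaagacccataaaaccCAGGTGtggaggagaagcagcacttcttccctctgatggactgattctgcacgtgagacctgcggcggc
The Jup window held 2 GC boxes and no E2 box, and its GC content was 60.7%. The Epcam window held 2 E2 boxes and 1 GC box, at a GC content of 57.0%. Neither of the 2 Ctnnd1 windows, with GC contents of 67.7% and 42.7%, held any of the 3 motifs. Among all 32851 promoter windows of this length, 20.2% held an E2 box, 35.7% a GC box and 1.63% a CArG box. Their median GC content was 52.7%. A match describes the letters in the window and is not evidence of binding.

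Beta-catenin (Ctnnb1, no member of the set) binds the same site of the cadherin tail as plakoglobin and was set beside Jup. Its level was 744, 702 and 747 CPM in WT and 751, 772 and 773 CPM in Srrm2+/-. These ranges came close to touching without overlapping, and the log2 fold change of 0.07 (SE 0.04, 95% interval -0.03 to 0.16) did not pass the test (edgeR adjusted p = 0.282). The log2 ratio of Jup to Ctnnb1 counts was -4.25, -4.20 and -4.25 in WT and -3.77, -3.98 and -3.87 in Srrm2+/-. It was 0.36 higher in Srrm2+/- with no overlap (two-sided exact permutation p = 0.1, Benjamini-Hochberg p = 0.133). Per length of annotated exons, Jup made up 4.12 ± 0.0827% of the sum of Jup and Ctnnb1 in WT and 5.22 ± 0.363% in the Srrm2+/- libraries (SD, n = 3 each).

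The log2 ratio of Ctnnd1 to Ctnna1 counts was -2.31, -2.42 and -2.47 in WT and -2.44, -2.41 and -2.41 in Srrm2+/-. The groups overlapped, and the difference of -0.02 was smaller than the SD among WT libraries (exact permutation p = 0.9, Benjamini-Hochberg p = 0.9). Its sign changed without WT replicate 1, to 0.0227.

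**Figure D2:**
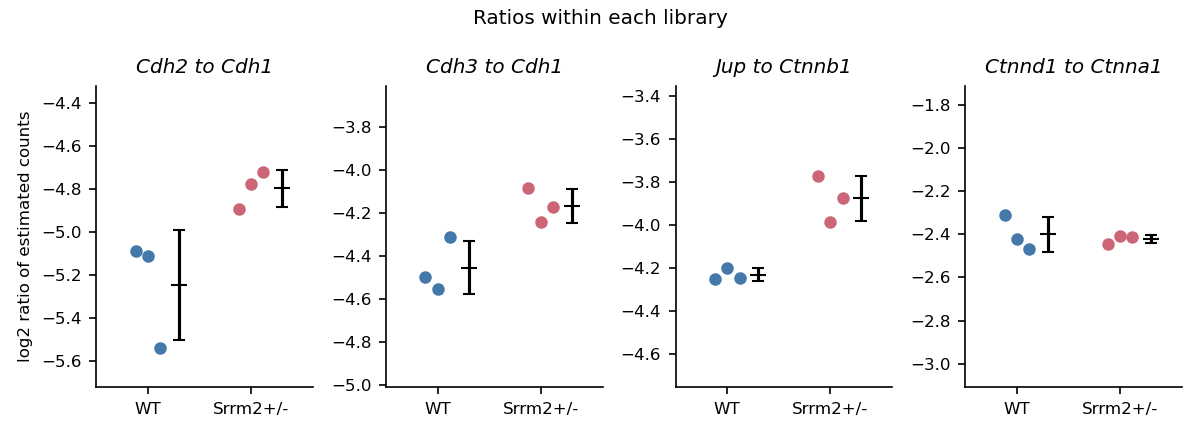
Log2 ratio of estimated counts of the named gene pair in each library (points, WT in blue and Srrm2+/- in red), with the mean ± SD of each group (n = 3) in black and vertical axes of equal span that do not start at 0. The Srrm2+/- libraries lie above the WT libraries for Cdh2 to Cdh1, Cdh3 to Cdh1 and Jup to Ctnnb1, and within the WT range for Ctnnd1 to Ctnna1.

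**Figure D3:**
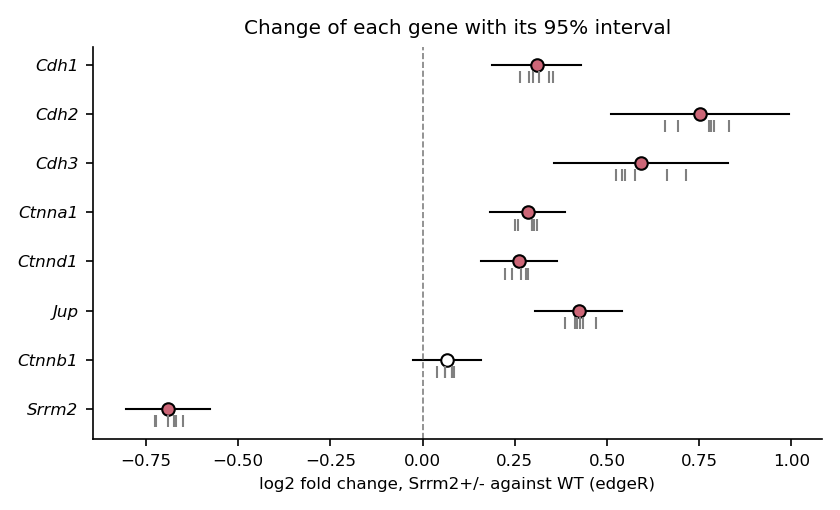
Log2 fold change of Srrm2+/- against WT (horizontal axis, edgeR) for the 6 tested members, Ctnnb1 and Srrm2, with 95% intervals (lines); filled points passed the test and grey ticks give the value with each library left out in turn. The 6 members lie between 0.26 and 0.75, Ctnnb1 at 0.07 and Srrm2 at -0.69.

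The 6 increases stood in the upper part of all tested genes without being at its extreme. The log2 fold change of Ctnnd1 was at the 78.3 percentile, that of Ctnna1 at 79.7 and that of Cdh1 at 80.9. Jup was at 85.2, Cdh3 at 89.6 and Cdh2 at the 92.2 percentile. None of the 6 reached a log2 fold change of 1. All 6 remained called under every change of scaling, filter and tool that was run and with each library left out, where the highest adjusted p was 0.0165.

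Levels were compared between genes as CPM per kilobase of annotated exon. Ctnnb1 had the highest level (141 ± 4.86 in WT and 147 ± 2.40 in Srrm2+/-), followed by Ctnna1 (76.0 ± 2.31 and 92.6 ± 3.91) and Cdh1 (58.0 ± 3.59 and 71.8 ± 2.77, SD, n = 3 each). Ctnnd1 (12.6 ± 0.367 and 15.2 ± 0.714) and Jup (6.05 ± 0.0876 and 8.11 ± 0.486) came next. Cdh3 (2.77 ± 0.388 and 4.18 ± 0.359) and Cdh2 (0.870 ± 0.110 and 1.47 ± 0.107) were the lowest of the tested members. Neighbours in this order did not overlap within either group.

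With the length of the longest coding transcript in place of all exons, the order of the group means was unchanged, but Ctnnd1 and Jup overlapped in Srrm2+/-. On that scale Ctnnd1 stood at 16.9, 17.1 and 18.4 CPM per kilobase and Jup at 17.2, 15.2 and 16.4 in the Srrm2+/- libraries.

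**Figure D4:**
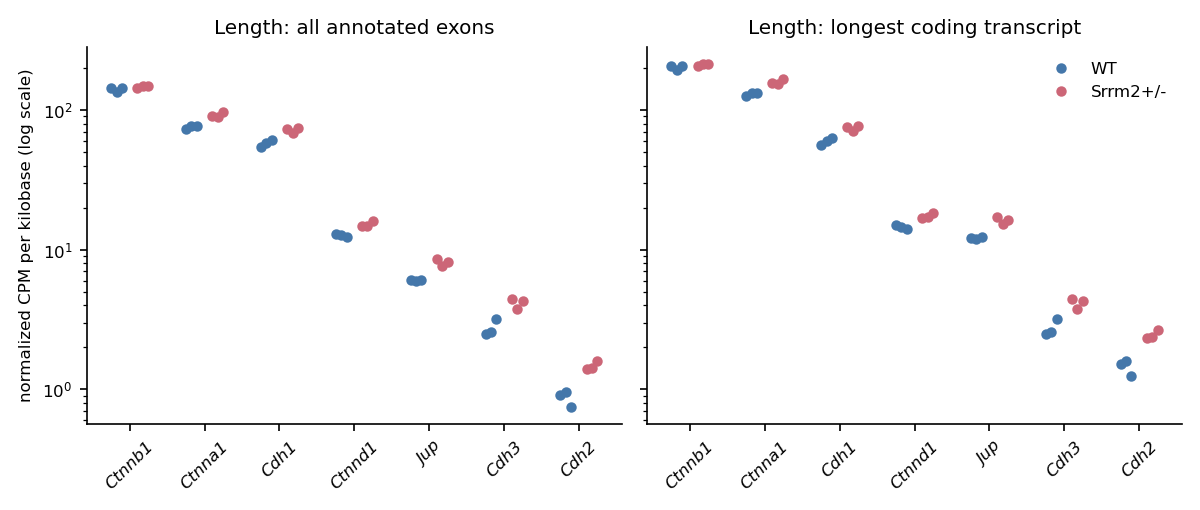
Level per kilobase (vertical axis, log scale) of each tested member and Ctnnb1 in WT (blue) and Srrm2+/- (red) libraries, with all annotated exons (left) or the longest coding transcript (right) as the length. Ctnnb1, Ctnna1 and Cdh1 form the upper group and Cdh3 and Cdh2 the lower one under both lengths.

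Among the 15 other type I and type II cadherins, 9 were tested, 4 were called higher and none lower, with a median log2 fold change of 0.76. Over all tested genes, 13.6% were called higher and 11.7% lower, the shares to set beside each list count given here and below. All were scarce beside the 3 members. The most abundant was Cdh10, at 1.62 CPM in WT and 2.74 in Srrm2+/- (log2 fold change 0.76, edgeR adjusted p = 0.0294). Cdh4, which encodes R-cadherin, had a log2 fold change of 0.96 (adjusted p = 0.0337), and Cdh24 of 0.67 (adjusted p = 0.0181). Cdh11, the OB-cadherin of mesenchymal cells, had 0 to 2.75 counts in WT libraries and 20.5 to 22.0 in Srrm2+/- libraries (adjusted p = 0.00619) and was 1 of 3 tested genes here that had 10 counts in every library of only 1 group. The call of Cdh10 was lost on leaving out any library but WT replicate 1 (adjusted p 0.0609 to 0.0973). That of Cdh4 was lost without WT 2, WT 3, Srrm2+/- 2 or Srrm2+/- 3 and in 3 further fits (0.0520 to 0.122), and that of Cdh24 without WT 2, WT 3 or Srrm2+/- 1 (0.0563 to 0.0672).

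The catenin relatives and actin linkers did not move as a group. Of 13 listed, 11 were tested, of which 1 was called higher and 2 lower, with a median log2 fold change of 0.07. The share of all tested genes called in either direction was 25.3%. Vcl, which encodes vinculin, the protein that reinforces alpha-catenin's hold on actin, rose from 58.0 to 108 CPM (log2 fold change 0.90, edgeR adjusted p = 4.33e-06). Lima1, which encodes the actin-bundling protein EPLIN, fell by 0.28 on the log2 scale (adjusted p = 0.0166), and Ctnnal1, which encodes alpha-catulin, fell by 0.21 (adjusted p = 0.0328). The call of Lima1 was lost without WT 2 or Srrm2+/- 1 (0.0552 to 0.0600), and that of Ctnnal1 without WT 1, WT 3, Srrm2+/- 1 or Srrm2+/- 2 and with the replicate block (0.0567 to 0.108).

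The nectin system, the second adhesion system of adherens junctions, had 8 listed genes, all tested, of which 6 were called higher and 1 lower (median log2 fold change 0.31). Afdn, the most abundant, encodes afadin, which ties nectins to actin, and had a log2 fold change of 0.26 (edgeR adjusted p = 0.00242). Nectin2 rose from 69.8 to 99.8 CPM (log2 fold change 0.52, adjusted p = 4.51e-05), Nectin1 by 0.59 on the log2 scale (adjusted p = 0.00944) and Pvr, a nectin-like receptor, by 0.35 (adjusted p = 0.00432). Nectin4 had a log2 fold change of 0.69 (adjusted p = 0.0214). Nectin3, named after its values were seen as the only gene called lower, had -0.20 (adjusted p = 0.0211). The call of Nectin4 was lost without WT 1, WT 2, Srrm2+/- 2 or Srrm2+/- 3 and with DESeq2 (0.0617 to 0.0733), and that of Nectin3 without WT 1, WT 3, Srrm2+/- 2 or Srrm2+/- 3 (0.0598 to 0.0832).

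Desmosome genes, which share plakoglobin with the adherens junction, had 8 tested of 13 listed, with 5 called higher, none lower and a median log2 fold change of 0.79. Dsc2, which encodes desmocollin 2, a desmosomal cadherin, rose from 1.47 to 6.89 CPM (log2 fold change 2.23, edgeR adjusted p = 8.46e-06). Dsp, which encodes desmoplakin, the anchor to keratin filaments, rose from 14.5 to 35.8 CPM (1.30, adjusted p = 2.29e-06). Ppl, which encodes the plakin periplakin, had a log2 fold change of 1.38 (adjusted p = 0.000145). Pkp2, which encodes the plakophilin that binds desmoplakin and was the most abundant gene of the list, had 0.81 (adjusted p = 2.32e-05). All 5 calls held in every fit run.

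Among 15 genes known to act with or on EPCAM, all tested, 4 were called higher, none lower, and the median log2 fold change was 0.04. Over all tested genes, 25.3% were called in either direction. Fhl2, which encodes a LIM protein that binds the cleaved tail of EPCAM, had 4 to 11 counts in WT and 190 to 219 in Srrm2+/- (edgeR adjusted p = 2.12e-05), so it had at least 10 counts in every library of Srrm2+/- and not of WT. Cldn7, which encodes claudin 7, a tight junction protein that associates with EPCAM, rose from 6.22 to 13.9 CPM (log2 fold change 1.16, adjusted p = 3.73e-05). St14, which encodes the membrane protease matriptase, had 0.29 (adjusted p = 0.0423), a call lost without WT 1, WT 2, WT 3 or Srrm2+/- 1 and with limma voom (0.0521 to 0.115). Adam17, a sheddase and the most abundant of the list, had a log2 fold change of -0.05 (adjusted p = 0.508).

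Genes of E-cadherin processing, phosphorylation and uptake moved in both directions. All 15 were tested, 6 were called higher and 3 lower, and the median log2 fold change was 0.08. Ptpn14, which encodes a tyrosine phosphatase found at junctions, rose from 4.80 to 22.6 CPM (log2 fold change 2.23, edgeR adjusted p = 1.69e-06). Furin, which encodes the convertase that removes the E-cadherin propeptide, rose by 0.68 on the log2 scale (adjusted p = 0.00509), and Mmp14, a membrane-type metalloproteinase gene, by 0.46 (adjusted p = 0.00143). Yes1, a Src-family kinase gene, fell from 274 to 175 CPM (-0.65, adjusted p = 1.33e-05). Csnk2a1, which encodes the catalytic subunit of casein kinase 2 and was the most abundant, had -0.12 (adjusted p = 0.0464). The call of Csnk2a1 was lost in 9 of 13 other fits, 5 of them with a library left out, every one but WT 2 (0.0507 to 0.138). Without Srrm2+/- replicate 1, the number of calls in this list went from 9 to 5.

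Transcription factors known to repress Cdh1 were mostly scarce. All 10 were tested, 5 were called higher and 2 lower, and the median log2 fold change was 0.72, but 4 had 10 counts in every library of only 1 group. With a filter of 1 CPM or more throughout at least 1 group, 6 were tested. Of these, 3 were called higher and 2 lower, with a median log2 fold change of 0.38. Twist1 rose from 1.61 to 3.52 CPM (log2 fold change 1.12, edgeR adjusted p = 0.000536) and Snai3 from 1.15 to 3.05 CPM (1.40, adjusted p = 0.00256). Prrx1 and Twist2 were among those 4. Prrx1 had 8.24 to 18.6 counts in WT libraries and 42.7 to 59.4 in Srrm2+/- libraries (adjusted p = 0.00743), and Twist2 had at most 2.02 counts in a WT library and 14.3 to 23.2 in Srrm2+/- libraries (adjusted p = 0.0056). Zeb1 and Tcf4, named after their values were seen as the 2 genes called lower, fell from 24.0 to 14.6 CPM (-0.72, adjusted p = 0.000385) and from 35.4 to 23.0 CPM (-0.62, adjusted p = 0.000107). The most abundant, Tcf3, had a log2 fold change of 0.08 (adjusted p = 0.153). Cdh1 was higher in the same libraries in which these repressor genes moved both ways, and their part in the change of Cdh1 was not tested.

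Of 12 epithelial transcription and splicing factors, 10 were tested, 3 were called higher and 1 lower, with a median log2 fold change of 0.14. Grhl2, a grainyhead-like factor that activates Cdh1 in epithelia, rose from 26.7 to 49.5 CPM (log2 fold change 0.89, edgeR adjusted p = 4.42e-05). Esrp1, an epithelial splicing regulator, had 0.44 (adjusted p = 0.000871) and its relative Esrp2 had 0.32 (adjusted p = 0.0326). Grhl1 had -0.32 (adjusted p = 0.0327), and Klf5, the most abundant, had -0.15 and did not pass (adjusted p = 0.159). The call of Esrp2 was lost without WT 2, WT 3, Srrm2+/- 1 or Srrm2+/- 3 and with the replicate block (0.0510 to 0.119), and that of Grhl1 on leaving out any library but Srrm2+/- 1 (0.0534 to 0.107). Without WT 2, WT 3 or Srrm2+/- 3, the list had 2 calls.

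**Figure D5:**
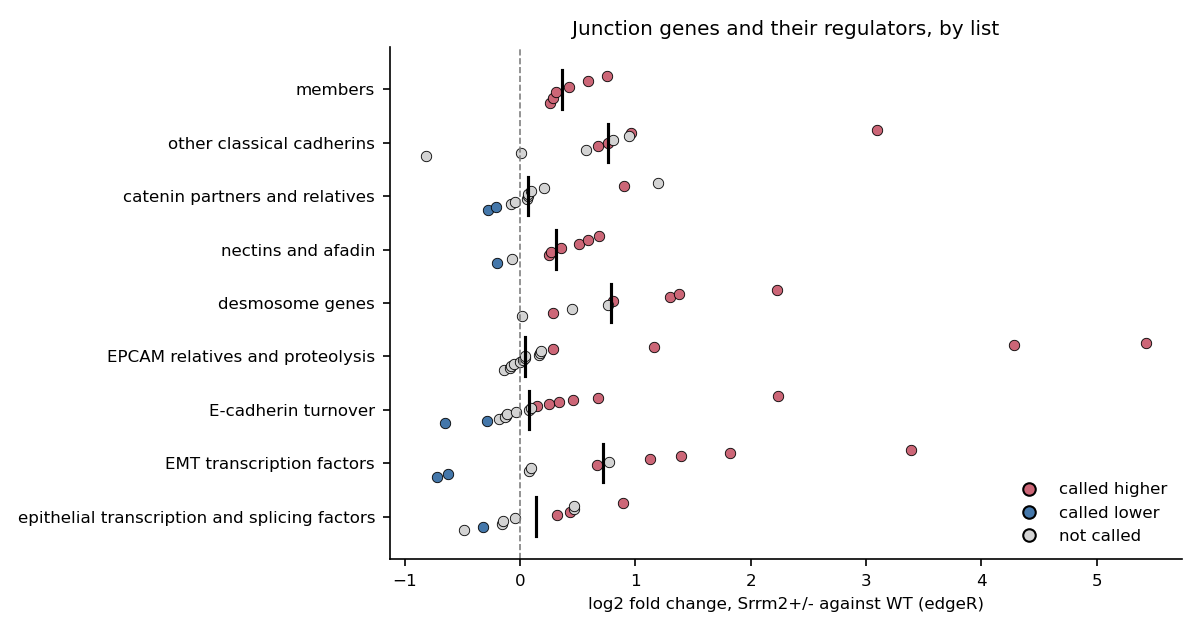
Log2 fold change of Srrm2+/- against WT (horizontal axis, edgeR) for each tested gene (points) of the members and of 8 lists of junction genes and their regulators, with the median of each list as a black bar. Points called higher are red, called lower blue and not called grey. The desmosome genes and other cadherins have the medians furthest to the right, at 0.79 and 0.76. Of the 9 tested other cadherins, 3 entered the test through 1 group alone, which limits the reading of their median. With a filter of 1 CPM or more throughout at least 1 group, 2 other cadherins were tested, with a median of 0.72.

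Markers of ESC and of other cell types moved in the same libraries as the members. The summed level of 9 pluripotency genes, all measured in every library, was 5057 to 5212 CPM in WT and 4390 to 4470 in Srrm2+/-, with 1 called higher and 6 lower and Tdgf1 the most abundant (1135 and 1079 CPM). The 7 markers of simple and stratified epithelium summed to 19.3 to 22.4 CPM in WT and 260 to 290 in Srrm2+/-, led by the keratin gene Krt18 (9.21 and 127 CPM), while Krt5, a keratin of stratified epithelium, was below 0.1 CPM in every library. In this list 3 of 4 tested genes were called higher.

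The 8 mesenchyme and fibroblast markers summed to 86.0 to 102 CPM in WT and 117 to 134 in Srrm2+/-, of which Vim made up most (86.8 and 113 CPM) and Dcn was near 0, with 5 of 7 tested genes called higher, among them Twist1, which the list of Cdh1 repressors also holds. The 6 neural markers summed to 148 to 153 and 166 to 172 CPM, with 1 called higher (Nes, 13.2 and 83.6 CPM) and 3 lower. Those called lower were Tubb3 (48.8 and 28.7 CPM), Ncam1 (42.6 and 17.9) and Pax6 (27.2 and 22.1), so the higher sum came from Nes. The 7 trophoblast markers summed to 4.82 to 5.41 and 9.79 to 10.7 CPM (Krt7 the most abundant, 2.81 and 7.23). The 6 markers of streak and mesoderm summed to 2.11 to 3.08 and 5.16 to 5.73 CPM (T the most abundant, 0.886 and 3.29, Mesp1 near 0). Each of these lists had 2 genes called higher, and Eomes, which both lists hold, was among them in each. The 8 primitive endoderm markers summed to 50.3 to 61.9 CPM in WT and 35.8 to 39.4 in Srrm2+/-, with 1 called higher (Dab2) and 1 lower (Lama1). Lama1 made up most of these sums, with means of 53.9 and 34.6 CPM. The part of these cell types in the changes of the members was not tested.

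The genes whose log2 CPM was most alike to that of Cdh1 over the 6 libraries were Pim1 (Pearson r 0.998), Cmtm4 (0.996) and Plk1 (0.996), out of 10914 protein-coding genes compared. For Cdh2 they were Ncdn (0.999), Spsb2 (0.999) and Spg20 (0.996). With 6 libraries in 2 groups such values are common, and 400 and 361 genes had an r above 0.95 with Cdh1 and Cdh2, so these names are a description only. No such list is given for Epcam, which was listed at 0 in 5 libraries.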

How the data were processed

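Total RNA from 3 WT and 3 Srrm2+/- ESC cultures was sequenced with a stranded kit. Per the study's methods and the submitters' processing notes, reads were pseudo-aligned with kallisto 0.46.1 to a GENCODE mouse transcriptome, and the authors deposited the estimated counts of each gene without normalization. How strand was set in counting is not given in the sources used here. Because kallisto splits a read over the transcripts it fits, counts can pass between overlapping or near-identical genes. Groups and replicate numbers came from the sample titles.

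Estimated counts were rounded to whole numbers, filtered with filterByExpr (minimum count 10, minimum total 15), scaled with TMM factors and tested with the quasi-likelihood F test of edgeR 4.0.16 in R 4.3.3, with genotype as the sole term and Benjamini-Hochberg adjustment over 18905 genes. Genes were called at an adjusted p under 0.05. The procedure was tested on simulated data. Ratios used two-sided exact permutation tests over libraries. Symbols, lengths and positions came from a GENCODE annotation of GRCm38, to which 42156 of 42450 identifiers matched. Library depth was 54151532 to 69933465 estimated counts, and a floor of 3 counts covers counting error only.

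The members and gene lists were chosen with earlier results of these data known. All members were named with 6 values each, and from each list the most abundant gene and up to 4 called genes with the largest absolute log2 fold change. A gene that this rule names is not reported here. Same-numbered libraries did not deviate together (r = -0.03 in each of 3 pairs), so no block was used. Alternatives were RLE and upper quartile scaling, DESeq2 1.42.0, limma 3.58.1 with voom, 2 other filters, a replicate block and each library left out.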

Additional observations from a re-analysis of the deposited data

How the results depend on the processing

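Of 256 recomputed values, 243 were counted as unchanged. A fold change had to keep its direction and call, a count had to stay within 1.5 times, and a ratio had to keep its direction only. The Cdh3 to Cdh1 ratio had an exact permutation p of 0.2 with any Srrm2+/- library left out, against 0.1 with all libraries. The log2 fold changes with each library left out in turn were 0.26 to 0.35 for Cdh1, 0.66 to 0.83 for Cdh2, 0.53 to 0.71 for Cdh3, 0.25 to 0.31 for Ctnna1, 0.22 to 0.29 for Ctnnd1, 0.39 to 0.47 for Jup and -0.72 to -0.65 for Srrm2. All 6 tested members were called under each alternative scaling, filter and tool and at an adjusted p under 0.01, and 0 when a log2 fold change of at least 1 was also required, since none is that large. With a stricter filter (1 CPM or more throughout at least 1 group), 2 of the other classical cadherins were tested and 2 called. With each library left out, calls ran from 1 to 4 for the other classical cadherins, 1 to 3 for the catenin partners, 5 to 7 for E-cadherin turnover and 2 to 4 for the epithelial factors. The log2 ratio of Ctnnd1 to Ctnna1 ran from -0.0559 to 0.0227 and turned positive without WT replicate 1. Same-numbered libraries were not shown to be paired. With the replicate block, 6 members were called and 4166 genes in all, against 4781 without it, and no member's call changed. The ratios of Cdh2 and Cdh3 to Cdh1 and of Jup to Ctnnb1 had an exact sign-flip p of 0.25, the smallest that 3 pairs allow. The causes of these changes were not tested. Depth limits the reading of list genes under 10 counts, and 3 libraries per group limit every interval.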

Other observations

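The summed level of Cdh1, Cdh2 and Cdh3 per kilobase of annotated exon, as a percent of that of Ctnnb1, was 40.2, 45.8 and 45.4 in WT replicates 1 to 3 and 54.4, 49.7 and 53.6 in Srrm2+/- replicates 1 to 3. The groups did not overlap. With the longest coding transcript as the length, the values were 29.2, 33.2 and 32.9 in WT and 39.6, 36.2 and 39.0 in Srrm2+/-. This measure was chosen after the data were seen and is given with no test.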
